A study of Mus musculus with 4 samples.

Results

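The 10 genes described here encode subunits of protein phosphatase 2A (PP2A) in the mouse: Ppp2ca, Ppp2cb, Ppp2r1a, Ppp2r1b, Ppp2r2a, Ppp2r5a, Ppp2r5b, Ppp2r5c, Ppp2r5d and Ppp2r5e. They are 10 of 21938 protein-coding genes of GENCODE release M21 on the assembled chromosomes of mm10. The genes were chosen by function and by their Foxr2 peaks: Ppp2r5a holds one of the highest reproducible folds of the whole data set. The folds and site counts in these genes are the values that selected them and are given as a description, with no test. Peaks were assigned to a gene where they lay in its body or in the 10 kb on either side, called the gene region below.

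Foxr2 chromatin binding was profiled by CUT&RUN, in which an antibody brings a nuclease to its target and the DNA cut free around the target is sequenced. The antibody recognised the V5 tag, which the electroporated vector placed at the C-terminal end of Foxr2. The Foxr2 p53LOF libraries (genotype FOXR2 P53LoF in the labels, 2 replicates) came from neurospheres of a line established from a tumour made by in utero electroporation (IUE) of C57BL/6J embryos, in which a CAG promoter drives tagged FOXR2 and a guide RNA targets Trp53. The V5 control libraries (genotype H3.3G34R, 2 replicates) came from a different IUE model on the same strain that carries no V5 tag, so tag, oncogene and model cannot be told apart between the groups. Overexpression from CAG and the use of 1 Foxr2 p53LOF line limit the model, and nothing in the sources used here says that replicates were separate cultures. The files hold peak positions and no expression, so the identity of the cells was not checked against markers.

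PP2A is a major serine/threonine phosphatase of eukaryotic cells and is abundant in brain. Its core pairs a catalytic C subunit with a scaffold A subunit, and the core takes up 1 of many regulatory B subunits, which choose the substrates and the place of action. The B subunits fall into unrelated families, among them B55 (the Ppp2r2 genes) and B56 (the Ppp2r5 genes). PP2A is widely regarded as a tumour suppressor, and B56 complexes act on MYC, on WNT signalling and at the kinetochore.

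The deposited lists held 31909 and 38580 peaks in Foxr2 p53LOF replicates 1 and 2 and 308 and 124 in V5 control replicates 1 and 2. For each peak, the fold is the fragment pile-up at the summit over the background of its own library, as MACS2 gave it, and at these backgrounds a fold above 6 took at least 13 fragments in Foxr2 p53LOF replicate 1 and at least 18 in replicate 2. Peaks were kept with a fold above 6, a −log10 q above 6, a length under 10000 bp and under 10 bp of overlap with any control peak. Where kept peaks of the 2 Foxr2 p53LOF replicates overlapped, the shared stretch was taken as a reproducible site, and it takes the lower of its 2 folds as its rank value. This gave 11947 sites, of which 7807 had a protein-coding transcript starting inside them or up to 1 kb away and are called promoter sites. Intervals after a fold are 95% Poisson intervals from the fragments at the summit and cover counting error only.

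All 10 genes held a reproducible site in their region, where 50.0% of all protein-coding genes did. All 10 also held a site at a start of their own, where 39.2% of all protein-coding genes did. Both shares belong to the choice of the genes, and nothing is read from the difference. Deposited peaks of any fold lay in the region of each of the 10 genes in both Foxr2 p53LOF replicates, beside 63.8% of all genes. The control lists held 0 peaks in the 10 regions, beside 0.556% of all genes with a control peak in theirs, and a missing entry in a list of called peaks is not a measured level of 0. The 10 regions held 15 reproducible sites, of which 11 lay at the genes' own starts and 4 elsewhere. A minimum fold of 10 left 8 genes with a site in the region, against 27.8% of all genes, and 7 with a site at an own start, against 19.7%. Ppp2r1b and Ppp2r5e had no site at that minimum, and Ppp2r5d kept a site in its region but lost the one at its start.

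**Figure D1:**
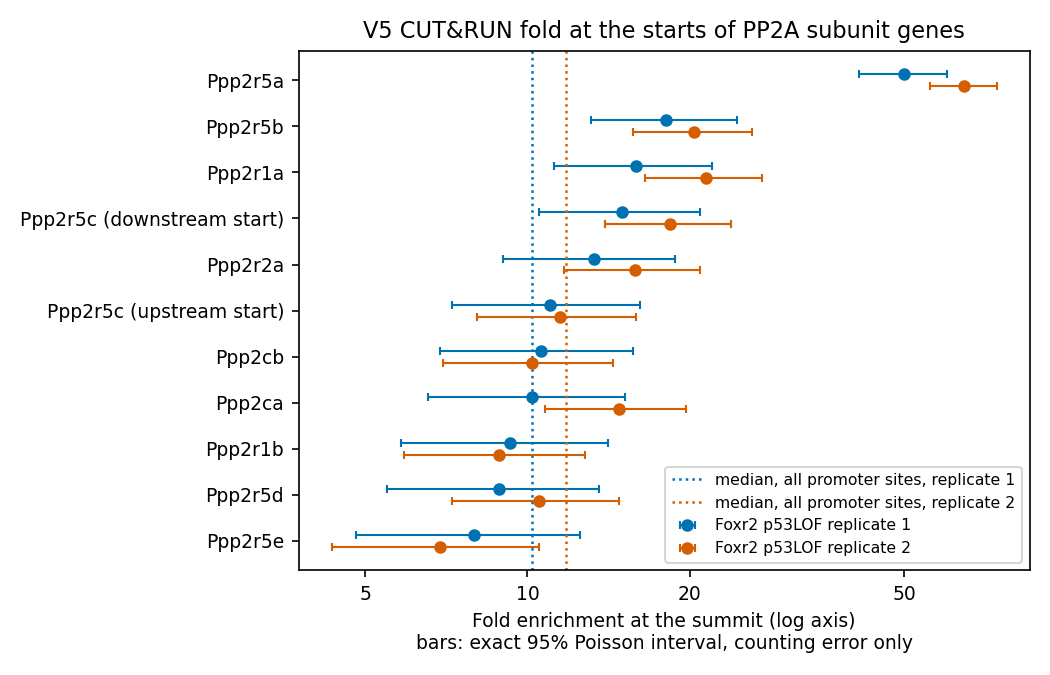
Fold over the library background at the 11 reproducible sites on the starts of the PP2A subunit genes, in Foxr2 p53LOF replicates 1 and 2, with 95% counting intervals (logarithmic axis) and dotted lines at the medians of all promoter sites. Ppp2r5a stands at 49.9 and 64.4, the other 10 sites between 6.90 and 21.4, and the intervals of Ppp2r5a meet none of the others.

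The 5 sequences below are shown because their summits lie upstream of the start in both replicates, so that they hold no transcribed part of the protein-coding models, and they run from the highest fold of the 10 genes down to folds near 9.28 and 8.84 in replicate 1. Each is the 200 bp around the mean of the replicate summits, read in mm10 on the strand of the gene, 5′ to 3′, and the capitals mark the stretch from one replicate's summit to the other's. They lie at chr1:191397366-191397565 (minus strand, Ppp2r5a), chr19:6236003-6236202 (minus strand, Ppp2r5b), chr12:110446700-110446899 (plus strand, the upstream start of Ppp2r5c), chr17:46705199-46705398 (minus strand, Ppp2r5d) and chr9:50856620-50856819 (plus strand, Ppp2r1b).
Ppp2r5a: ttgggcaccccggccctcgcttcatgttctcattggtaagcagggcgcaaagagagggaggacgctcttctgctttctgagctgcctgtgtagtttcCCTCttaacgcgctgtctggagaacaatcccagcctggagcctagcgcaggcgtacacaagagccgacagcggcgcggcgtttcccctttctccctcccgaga
Ppp2r5b: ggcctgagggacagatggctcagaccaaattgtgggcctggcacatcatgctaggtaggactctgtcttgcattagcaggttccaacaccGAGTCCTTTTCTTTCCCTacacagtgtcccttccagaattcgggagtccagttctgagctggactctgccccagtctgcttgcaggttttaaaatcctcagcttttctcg
Ppp2r5c: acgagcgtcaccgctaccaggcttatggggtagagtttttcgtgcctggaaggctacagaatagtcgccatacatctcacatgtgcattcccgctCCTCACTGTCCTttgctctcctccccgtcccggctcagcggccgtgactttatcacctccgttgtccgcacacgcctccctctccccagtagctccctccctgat
Ppp2r5d: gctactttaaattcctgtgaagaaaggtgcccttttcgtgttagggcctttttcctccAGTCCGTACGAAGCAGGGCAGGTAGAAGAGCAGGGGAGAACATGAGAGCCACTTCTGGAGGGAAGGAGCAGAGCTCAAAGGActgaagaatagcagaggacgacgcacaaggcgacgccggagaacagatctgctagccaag
Ppp2r1b: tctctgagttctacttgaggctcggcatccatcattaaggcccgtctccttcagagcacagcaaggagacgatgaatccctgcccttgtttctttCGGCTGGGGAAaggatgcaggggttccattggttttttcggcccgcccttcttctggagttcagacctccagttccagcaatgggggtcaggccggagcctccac
The summits of the replicates were 3 bp apart in Ppp2r5a, the closest of these windows, and 81 bp apart in Ppp2r5d, the farthest. GC content ran from 52.0% in the Ppp2r5b window to 60.0% in the Ppp2r5a window. The windows held from 3 CpG dinucleotides (Ppp2r5b) to 14 (Ppp2r5a).

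The catalytic subunits Ppp2ca (Cα) and Ppp2cb (Cβ) carry the active site and are nearly identical proteins encoded on different chromosomes. At the start of Ppp2ca, the site chr11:52097920-52100680 had a fold of 10.2 (interval 6.53 to 15.2, 22 fragments) in replicate 1 and 14.8 (10.8 to 19.7, 44 fragments) in replicate 2. At the start of Ppp2cb, the site chr8:33599247-33601218 had a fold of 10.6 (6.88 to 15.7, 23 fragments) in replicate 1 and 10.2 (6.98 to 14.4, 30 fragments) in replicate 2. The catalytic genes therefore sat at nearly the same lower fold, with overlapping intervals in both replicates. Among the 11947 sites they ranked 4378 and 4303 by lower fold. The Ppp2cb summits lay 132 and 74 bp into the transcribed 5′ UTR, 58 bp apart. In Ppp2ca they lay 683 bp (in the first intron) and 324 bp (in the 5′ UTR) after the start, 359 bp apart, and a microRNA gene model (Gm24157) begins within 1 kb of that site.

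The scaffold subunits Ppp2r1a (Aα) and Ppp2r1b (Aβ) hold the catalytic and regulatory subunits together, Aα being the more abundant form in most tissues. The Ppp2r1a site chr17:20943920-20946612 had a fold of 15.9 (11.2 to 22.0, 35 fragments) in replicate 1 and 21.4 (16.5 to 27.2, 64 fragments) in replicate 2. The Ppp2r1b site chr9:50856132-50857993 had a fold of 9.28 (5.84 to 14.1, 20 fragments) in replicate 1 and 8.87 (5.91 to 12.8, 26 fragments) in replicate 2. Ppp2r1a was thus the higher of the pair in both replicates, with intervals that overlap in replicate 1 and do not in replicate 2. Its summits lay 257 and 198 bp after the start, within coding sequence of the annotated transcripts, and a long non-coding RNA model (Gm49761) begins within 1 kb of the site. Those of Ppp2r1b lay 199 and 209 bp before the protein-coding start at position 50856924, inside the annotated gene, which begins at position 50845301 with a non-coding transcript model. Chromosome 17, which carries Ppp2r1a, had the highest median fold over all deposited peaks among the chromosomes of these genes (6.19 and 5.91 in the replicates), and chromosome 9 had 5.74 and 5.59. The part of chromosome level or copy number in the folds was not tested.

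The B55 subunit Ppp2r2a (B55α) directs PP2A to substrates of mitotic exit and to tau. Its own start lay in the site chr14:67070059-67073015, with a fold of 13.3 (9.02 to 18.8, 29 fragments) in replicate 1 and 15.8 (11.7 to 20.9, 47 fragments) in replicate 2. The replicate summits, 414 bp apart, lay 171 bp after and 234 bp before the nearest of the gene's 2 annotated starts, which is not the same start for both. A higher site of the same gene region, chr14:67007454-67010306, had folds of 15.5 and 25.3 and lay 3750 bp beyond the 3′ end of Ppp2r2a. It covers the start of Bnip3l, a mitophagy receptor gene, and the strongest signal assigned to the Ppp2r2a region was therefore at the start of a neighbour. Ppp2r2a also had the most deposited peaks of the 10 regions, 7 in replicate 1 and 13 in replicate 2.

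Of the B56 genes, Ppp2r5a (B56α), whose product brings PP2A to MYC, had the highest fold of the 10 genes. Its site chr1:191394963-191398675 had a fold of 49.9 (41.2 to 60.0, 112 fragments) in replicate 1 and 64.4 (55.7 to 74.1, 195 fragments) in replicate 2. It ranked 9 of 11947 by lower fold, and 11 of the 8599 genes with a promoter site, itself included, had a promoter fold at least as high. Directly above it, at rank 8, the site at the start of Ppp1r15b, a regulatory subunit of protein phosphatase 1, had folds of 50.4 and 64.1. Directly below, at rank 10, the site at 0610009B22Rik had 48.6 and 63.4. These neighbours differ from Ppp2r5a by less than its counting intervals. The Ppp2r5a site was 3713 bp long, the longest at any start of the 10 genes, and its summits lay 427 and 424 bp before the start of the protein-coding transcript at position 191397041. The annotated gene reaches to position 191403272, and both summits fall inside a longer non-coding transcript model of the same gene. No start of another protein-coding gene lay within 1 kb of the site. Chromosome 1 had median folds of 4.86 and 4.60, the lowest of the chromosomes of these genes in replicate 1 and level with chromosome 14 in replicate 2.

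The second of the B56 genes by fold was Ppp2r5b (B56β), with folds of 18.1 (13.1 to 24.5, 40 fragments) and 20.4 (15.7 to 26.1, 61 fragments) at the site chr19:6235496-6236652. Its summits lay 223 and 240 bp before the start. Ppp2r5c (B56γ), a subunit that guides PP2A to p53 and to centromeres, was the only one of the 10 genes with reproducible sites at 2 of its own starts. The site at its downstream start, chr12:110485130-110486464, had folds of 15.0 (10.5 to 20.9, 33 fragments) and 18.4 (13.9 to 23.9, 55 fragments). The site at its upstream start, chr12:110446371-110447464, had folds of 11.0 (7.24 to 16.2, 24 fragments) and 11.5 (8.07 to 15.9, 34 fragments). The downstream start was the higher in both replicates, with intervals that overlap in both. The upstream summits lay 325 and 314 bp before the start and the downstream summits 126 and 55 bp after it, where a non-coding processed transcript model (Gm19605) also begins within 1 kb of the site.

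Ppp2r5d (B56δ) and Ppp2r5e (B56ε) were the lowest of the B56 genes at their own starts. Ppp2r5d, a form prominent in brain, had folds of 8.84 (5.50 to 13.6, 19 fragments) and 10.5 (7.25 to 14.8, 31 fragments) at chr17:46704671-46705690, with summits 229 and 148 bp before the start. Ppp2r5e had folds of 7.95 (4.82 to 12.5, 17 fragments) and 6.90 (4.34 to 10.5, 20 fragments) at chr12:75595170-75596914. The Ppp2r5e summits were the farthest apart of the 11 sites, by 596 bp, with one in the 5′ UTR and the other upstream. With 17 and 20 fragments, this site stood just above the minimum, which takes 13 and 18.

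In the order of lower fold at their own starts, the genes ran Ppp2r5a, Ppp2r5b, Ppp2r1a, Ppp2r5c, Ppp2r2a, Ppp2cb, Ppp2ca, Ppp2r1b, Ppp2r5d and Ppp2r5e. Only the step from Ppp2r5a to Ppp2r5b exceeded the counting intervals in both replicates, and every other pair of neighbours in the order had overlapping intervals. Over wider gaps, Ppp2r5b and Ppp2r5e did not overlap in either replicate (13.1 against 12.5 and 15.7 against 10.5 as the nearest bounds). The B56 family therefore spanned the full range of the 10 genes, holding both the highest and the lowest fold. Replicate 2 had the higher fold at 8 of the 11 sites. Over all promoter sites it was the higher at 74.5%.

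**Figure D2:**
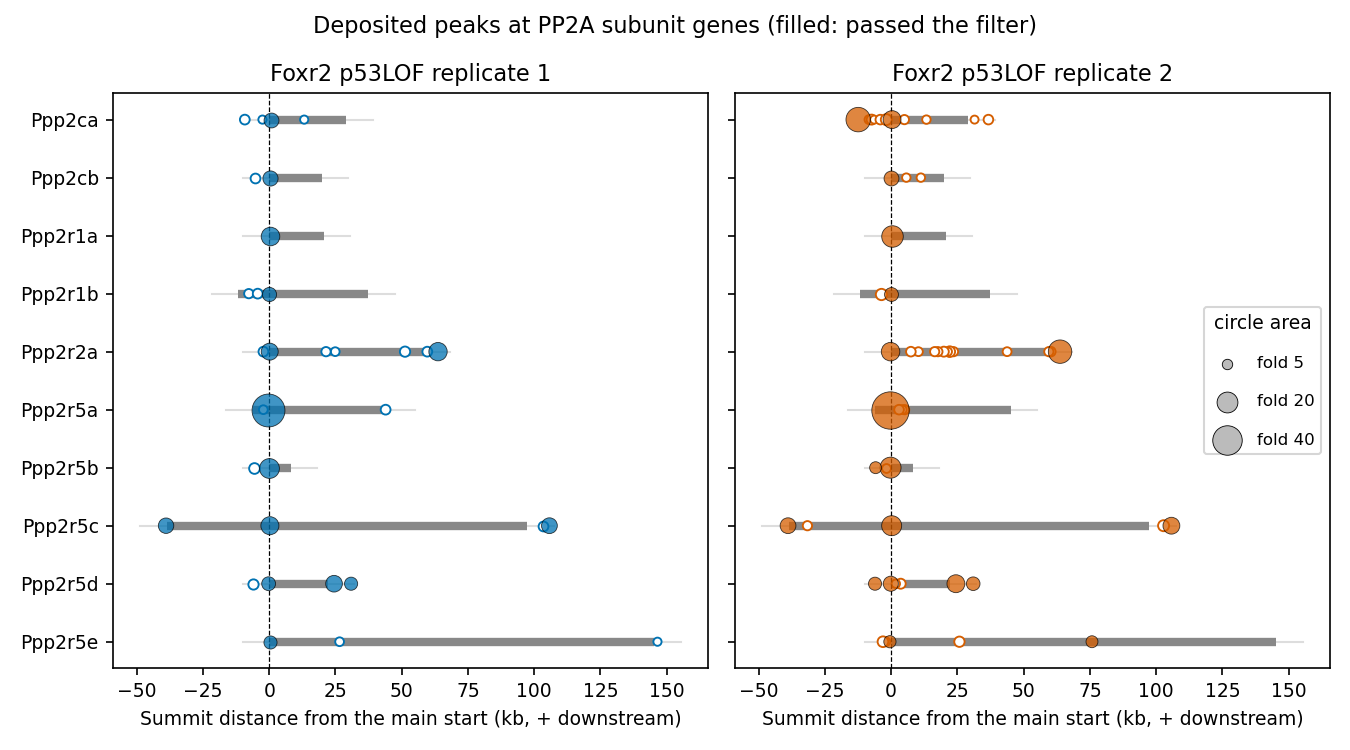
All deposited Foxr2 p53LOF peaks in the 10 gene regions, by distance of the summit from the main start of the gene (kb, positive downstream). Circle area stands for the fold, filled circles passed the filter, and grey bars mark the gene body and thin lines the region. Of the sites kept in both replicates, 11 of 15 lie at the genes' own starts, and of 33 and 53 peaks in replicates 1 and 2, 15 and 19 passed.

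The regions held more peaks than passed. Of the 33 deposited peaks of replicate 1 in the 10 regions, 15 passed and 18 failed, and of the 53 of replicate 2, 19 passed and 34 failed. Every failing peak, in both replicates, had a fold of 6 or less. A gene had from 1 to 7 peaks in replicate 1 and from 1 to 13 in replicate 2, and Ppp2r1a had a single peak in each. Some kept peaks of replicate 2 had no kept counterpart in replicate 1. In the Ppp2r5b region, a peak at the start of Atg2a had 6.57 in replicate 2 and 5.30 in replicate 1. Upstream of Ppp2r5d, near Pex6, the folds were 7.88 and 4.86 in the same order. An intronic peak of Ppp2r5e had 6.57 in replicate 2, and the replicate 1 list had no peak there.

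Of the 4 sites away from the genes' own starts, 3 covered starts of neighbouring protein-coding genes. One was the Bnip3l site in the Ppp2r2a region. The others lay downstream of Ppp2r5d. The site chr17:46679978-46681583, at the starts of Klhdc3 and Mea1, had folds of 12.8 and 14.8, above those at the start of Ppp2r5d itself. The site chr17:46674024-46674973, at the start of Rrp36, a ribosome biogenesis factor gene, had 7.95 and 8.54 and lay 8018 bp outside the gene body, the farthest of any site inside the 10 kb limit. The remaining site, chr12:110590602-110591977, had 11.5 and 13.1, lay 7540 bp beyond Ppp2r5c and had the start of the long non-coding RNA gene B930059L03Rik within 1 kb. Just outside the limit, the site chr11:52085667-52088211 lay 10470 bp before Ppp2ca and had folds of 17.2 and 27.6, above those at the Ppp2ca start. It covered no protein-coding start, and only the replicate 2 peak under it reached into the Ppp2ca region.

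Set among all genes with a promoter site, the 10 genes were spread over most of the range. Their lower fold at the own start had a median of 11.8 (lowest 6.90, highest 49.9, n = 10), beside 10.2 over 8599 genes, and 7 of the 10 lay above that median. As percentiles among those genes they ran from 11.9 (Ppp2r5e) to 99.9 (Ppp2r5a), with a median of 63.2. Below Ppp2r5a, Ppp2r5b stood at 88.7, Ppp2r1a at 83.1 and Ppp2r5c at 80.4. The ratio of replicate 2 to replicate 1 had a median of 1.19 at the 11 sites (0.867 to 1.45) and 1.15 at all promoter sites. Site length had a median of 1862 bp here and 1869 bp over all promoter sites.

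The choice of genes did not name the place of the summits, the neighbouring starts or the base composition. These features cannot be taken as independent of the choice, which used peaks. Promoter sites were more frequent at GC-rich starts, as given below. The replicate summits were a median of 59.0 bp apart at the 11 sites and 83.0 bp over all promoter sites, and within 100 bp of each other at 8 of 11 against 54.3%. Replicate 1 placed the summit upstream of the start at 5 of 11 sites and replicate 2 at 7 of 11, beside 40.4% and 44.3% of all promoter sites. At 11 of 11 sites the gene's own start was the only protein-coding start within 1 kb, against 85.6% of all promoter sites. With 11 sites these counts are descriptions, and none was tested.

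GC content in the 1000 bp around the start had a median of 65.9% in the 10 genes (51.6% in Ppp2r5c to 72.5% in Ppp2r5e). Over 21853 protein-coding genes, with or without a promoter site, the median was 55.3%. When all genes were put into 10 equal groups by GC content, the share with a promoter site went from 1.69% in group 1, the lowest, to 67.0% in group 10. Of the 8599 genes with a promoter site, 1334, 1415 and 1464 lay in groups 8, 9 and 10. Ppp2ca, Ppp2r5a and Ppp2r5e lay in group 10. Ppp2cb, Ppp2r1b and Ppp2r2a lay in group 9, where 64.8% of genes had a promoter site. Ppp2r5b and Ppp2r5d lay in group 8, with 61.1%, and Ppp2r1a in group 6, with 48.6%. Ppp2r5c lay in group 4, where 28.3% had a promoter site, by the bases around its downstream start. The site at its upstream start had a GC content of 71.4%, the highest of the 15 sites, so the group of this gene depends on the start taken. Among genes with a promoter site, the median lower fold of a group lay between 8.85 and 10.6 over all 10 groups. The part of GC content in these peaks was not tested.

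**Figure D3:**
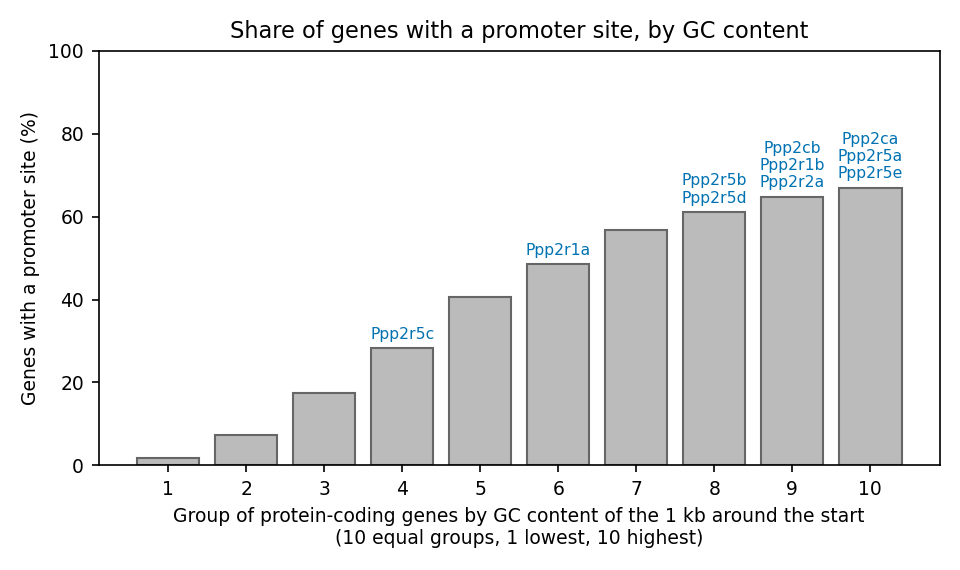
Percent of protein-coding genes with a reproducible Foxr2 promoter site in 10 equal groups by GC content in the 1000 bp around the start, with the groups of the PP2A subunit genes marked. The share goes from 1.69% to 67.0%, and 8 of the 10 genes lie in groups 8 to 10. Of the 8599 genes with a promoter site, these groups hold 1334, 1415 and 1464.

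Short motif letters were then looked for on both strands of the 200 bp windows at the summits. The letters were CCGGAAG (ETS), TGTTTAC (forkhead), AAGATGGC (YY1), GCGCATGCG (NRF1), TGACGTCA (CRE), CACGTG (E-box) and GGGCGG (SP), none of which contains another. Of the 11 windows at the genes' own starts, 5 held the SP letters (Ppp2r1a, Ppp2r2a, Ppp2cb, Ppp2r1b and Ppp2r5e), beside 39.5% of all promoter sites. The YY1 letters stood in 1 window (Ppp2r1a), beside 2.38% of promoter sites, and the CRE letters in 1 (Ppp2r2a), beside 0.973%. Neither of these matches was in the 200 bp around the centre of the site. The ETS letters were in 0 of 11, beside 7.62%, the forkhead letters in 0, beside 1.47%, the E-box letters in 0, beside 6.14%, and the NRF1 letters in 0, beside 1.10%. A missing match says only that these letters are not in these windows, and a match is not evidence of binding by the factor.

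RefSeq promoter sequences (GRCm38.p6, 250 bp before to 50 bp after a start) were found for 7 of the 10 genes. They have 9 entries, 2 each for Ppp2r5c and Ppp2r5d. Among them the ETS letters occurred in 1 (Ppp2r1a), beside 11.9% of 20150 promoters. The SP letters occurred in 8 of the 9, both Ppp2r5d entries among them, beside 47.8%, and the CRE letters in 1 (Ppp2ca), beside 2.31%. The forkhead, YY1, NRF1 and E-box letters occurred in 0, beside 2.96%, 3.11%, 2.45% and 8.03%. The Ppp2r1a entry is shown because it holds the one match to the ETS letters among the 9. The sequence is the part of that entry upstream of the GENCODE start at position 20945311, which lies before the start that RefSeq uses, chr17:20945204-20945310 on the plus strand, with the match in capitals as the reverse complement of the letters searched.
Ppp2r1a: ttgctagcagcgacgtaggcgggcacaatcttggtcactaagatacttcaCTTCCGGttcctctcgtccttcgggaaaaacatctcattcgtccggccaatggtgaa

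The 30 other genes of the pathway, in lists of further B subunits, maturation factors, inhibitors and catalytic subunits of the related PPP phosphatases, give the setting of these values. A site at their own start was present in 25 of 30, beside 10 of the 10 subunit genes and 39.2% of all genes. Of those 25 sites, 9 also had a start of another protein-coding gene within 1 kb, as at Ppp2r3c, which shares its site with 1110008L16Rik. The further B subunits had one in 8 of 9 (median lower fold 12.4), the maturation factors in 4 of 5 (10.8), the inhibitors in 5 of 7 (11.5) and the related catalytic subunits in 8 of 9 (10.2). Over the 25 the median was 11.5, close to the 11.8 of the subunit genes. At a minimum fold of 10, 16 of the 30 genes had a site in their region, where 27.8% of all genes did. The highest of the lists was Ensa, a small inhibitor that blocks PP2A with B55 in mitosis when phosphorylated, with folds of 40.6 and 56.8 (rank 20). Ppp2r3d and Ppp2r3c, B subunits of the B″ family, had 31.4 and 40.4 (rank 84) and 23.9 and 36.1 (rank 328). Of these 30 genes none reached the fold of Ppp2r5a, a value that the choice of the 10 genes used. The 5 without a reproducible site, of which the last 4 are named after their values were seen, were Ppp2r2c, Igbp1, Arpp19, Fam122a and Ppp1cc. Ppp2r2c, a B55 subunit of brain, had no deposited peak in its region in either Foxr2 p53LOF replicate. Arpp19, the close relative of Ensa, had highest folds of 4.42 and 4.60 in its region, under the minimum in both replicates.

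**Figure D4:**
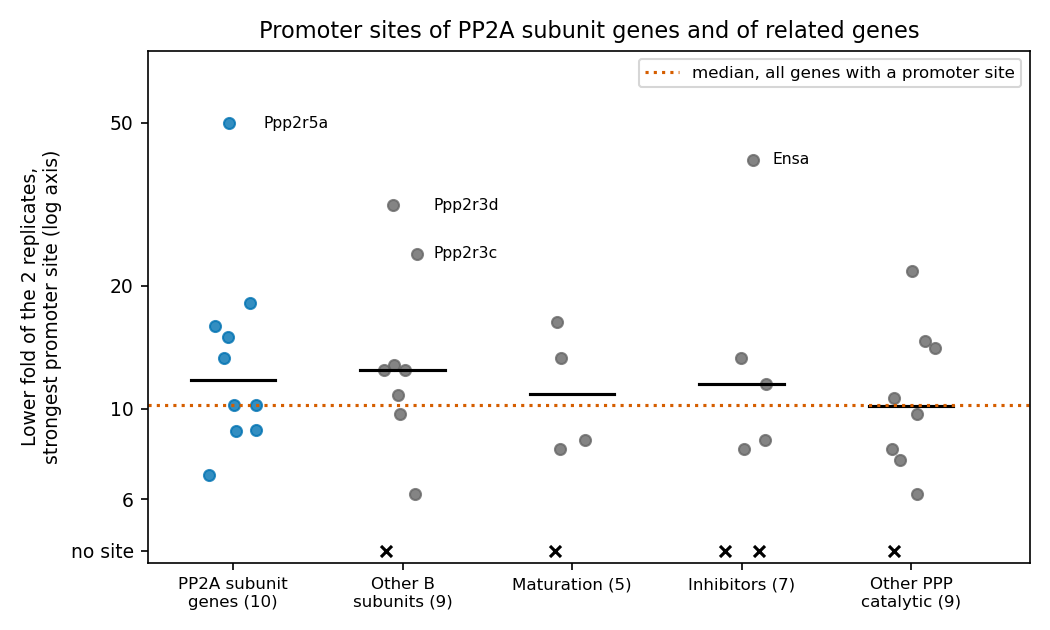
Lower fold of the 2 replicates at the own-start site of the PP2A subunit genes and of the 4 lists of related genes, 1 point per gene with a site (logarithmic axis), a cross for a gene without one, black bars at the list medians and a dotted line at the median of all genes with a promoter site. The medians lie between 10.2 and 12.4. Ppp2r5a at 49.9, a fold used in the choice of the 10 genes, lies above every point of the other lists, with Ensa next at 40.6.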

How the data were processed

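Foxr2 p53LOF and V5 control libraries (2 replicates each) were grouped by their labels. The authors trimmed reads with Trimmomatic (0.39), aligned them to mm10 with BWA (0.7.17), removed duplicates with Picard (2.26.6) and called peaks per library with MACS2 (2.2.7.1), by the GenPipes pipeline. The deposited signalValue is a fold, a ratio of fragments at the summit plus 1 to background plus 1, made by the authors with MACS2. The deposited −log10 p and −log10 q come from the same caller, and the deposited score is derived from the −log10 q. The lists still hold peaks that the study's filters remove, so the filters on control overlap, q, fold and length were applied here. The study's further intersection with snATAC-seq peaks was not made here.

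Backgrounds were recovered as the values at which folds up to 30 give whole fragments within 0.02 (99.97% and 99.91% of peaks in Foxr2 p53LOF replicates 1 and 2, 87.99% and 82.26% in V5 control replicates 1 and 2). They came to 1.26 and 2.04, and to 1.69 and 0.642 in the controls, whose values are less certain and enter no fold printed here. Fragment numbers at summits set the precision, since peak lists show no read totals. The recovery, the site calls, the control filter and the assignment of sites to regions were tested on simulated data, and the motif search was not. Analysis used Python 3.11.15, pandas 2.3.3, scipy 1.17.1 and pysam 0.24.0.

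The genes and the lists of related genes were chosen with earlier results of these data known, and no test was run on them. The genes named are the 10 subunit genes, the 3 listed genes with the highest lower fold, listed genes with no peak, genes starting at sites in the regions, and the genes at the ranks beside Ppp2r5a. Atg2a, Pex6, 1110008L16Rik, the non-coding models and the listed genes under the minimum were added after their values were seen. Alternatives changed the minimum fold and q, the overlaps, the greatest length, the size of the gene region and promoter window, the scaling by chromosome and the motif window, and left out each replicate in turn.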

Additional observations from a re-analysis of the deposited data

How the results depend on the processing

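Of the alternatives that could remove sites, the minimum fold of 10 did so for the genes given in the report, while all 10 genes kept one at a minimum −log10 q of 10, with a control overlap of 1 bp, with the stricter replicate overlap, within the gene body and within 500 bp of a start. The looser filters and wider windows could only add sites, as could leaving out a replicate, where the peaks of the other one stand alone. The 15 sites became 27 with 50 kb on either side, and between 15 and 19 with a replicate left out. In a region with several sites the strongest was taken, which in Ppp2r2a and Ppp2r5d lay at the start of a neighbour. No value over all genes is given for this percentile. The percentile of the own-start fold among genes with a promoter site had a median of 63.2. The median over the 10 genes of the percentile of the strongest site in the region among all sites was 82.6. It was 66.8 at a minimum fold of 10, over the 8 genes that kept a site, 85.4 with no minimum on fold, 77.6 at a minimum −log10 q of 10, 72.1 within the gene body only, 86.9 with 50 kb on either side, 74.6 with folds divided by the chromosome median, and 72.1 with own-start sites only, an alternative added after seeing the data. Leaving out a replicate gave 82.5 to 89.8. Of the 30 related genes, the 25 with a site became 16 at a minimum fold of 10, where 27.8% of all genes had one. With a replicate left out they became 25 to 26. The ETS letters, in 0 of 11 windows, were in 1 with the window at the site centre and in 1 of the RefSeq promoters. At the site centre the E-box letters were also in 1 window, and the single YY1 and CRE matches at the summits were gone (0 each). The RefSeq promoters held the YY1 letters in 0 and the CRE letters in 1 (Ppp2ca). Ppp2r5a stayed at a percentile of 99.8 to 99.9 over 16 settings, while Ppp2ca ranged from 3.76 at a minimum fold of 10 to 96.6 without Foxr2 p53LOF replicate 1, where the site 10470 bp upstream enters through its replicate 2 peak. Ppp2cb ranged from 8.32 at a minimum fold of 10 to 86.2 with 50 kb on either side. Ppp2r5e ranged from 2.72 at a minimum −log10 q of 10 to 68.7 with 50 kb on either side, and stood at 37.6 without replicate 2 against 18.6 as reported. No paired analysis was possible because no result comes from a test, and nothing in the sources used here says that the replicate numbers mark pairs. With 17 to 40 fragments at all own-start summits in replicate 1 but that of Ppp2r5a, counting error limits the order of the other 9 genes.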
